A study of Zea mays with 12 samples.

Results

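Sucrose transport and cleavage were described through 6 maize genes, chosen by gene identifier from the 39324 genes of the deposited table. They were chosen for their function, by a rule that uses no measured value, although earlier results of these data were known at the time. It holds 4 sucrose transporters, SUT1 (Zm00001d027854), SWEET13a (Zm00001d023677), SWEET13b (Zm00001d023673) and SWEET13c (Zm00001d041067), and 2 sucrose synthases, sh1 (Zm00001d045042) and sus1 (Zm00001d047253). The table gives gene identifiers of the B73 version 4 models without names, and the names are those that were paired with the identifiers when the genes were chosen.

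RNA was sequenced from shoot apices of maize inbred B104, dissected from seedlings after 7 days and holding the meristem, the leaf sheath and the primordia of plastochrons 0 to 5, with root, embryo and coleoptile cut away. A plastochron number gives the place of a leaf primordium counted outward from the meristem. The mutants were homozygous for CRISPR/Cas9 loss-of-function alleles of both TOO MANY LATERALS genes, tml1 and tml2, and the wild types segregated from the same edited material. Each genotype had 3 samples, numbered 2, 3 and 4, and each sample was sequenced in 2 runs that the labels call technical replicates. According to the labels, the mutants segregated independently of the transgene. The labels do not say plainly whether a sample is 1 apex or a pool, so the p-values measure only the spread between these samples. The identity of the tissue and the loss of tml1 and tml2 rest on the labels, since no table in hand pairs marker names or the targeted genes with identifiers.

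Sucrose is the main form in which plants move carbon. In maize leaf blades SWEET13 carriers let sucrose out of cells beside the vein into the cell wall space, and the proton-coupled importer SUT1 takes it up into the phloem. Growing leaves receive sucrose and cleave it, partly through sucrose synthases, which convert sucrose and UDP into UDP-glucose and fructose for cell walls, starch and respiration.

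The sucrose synthases were among the most abundant transcripts of the apex and the transporters were not. On the TPM scale, which corrects for transcript length (transcripts per 1000000 transcripts), sus1 had a mean level of 1171 over the 6 samples and ranked 54 among the 28048 genes with any TPM. Shrunken1 (sh1), known best as the sucrose synthase of the developing kernel, had a mean level of 719 TPM over the same samples and ranked 160. That mean joins unlike genotypes, at 261 TPM in wild types and 1177 TPM in mutants. SUT1 stood at 21.5 TPM, SWEET13a at 15.04, SWEET13b at 7.36 and SWEET13c at 2.04, against a median of 8.70 TPM over the same 28048 genes. SWEET13b and SWEET13c therefore lay below the middle of the detected genes.

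The order of levels from sus1 down to SWEET13c was nearly the same within every sample. sus1 exceeded sh1 in 5 of 6 samples, the exception being mutant 4, and SUT1 exceeded SWEET13a in 5 of 6, again except in mutant 4. SWEET13a exceeded SWEET13b in 5 of 6, except in wild type 3, and SWEET13b exceeded SWEET13c in 6 of 6. Among wild types the ranges of neighbouring genes in this order overlapped only for SWEET13a and SWEET13b. Among mutants they overlapped for every neighbouring pair except sh1 and SUT1.

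The libraries held 27213052 to 31980536 counts. On the first principal component of log2 CPM, which held 46.0% of the variance, wild types 2 and 4 scored −84.0 and −64.5, mutant 2 −3.21, wild type 3 9.88, mutant 3 26.2 and mutant 4 116. Mutant 4 thus stood apart at the high end, wild types 2 and 4 lay at the low end, and wild type 3 fell between mutants 2 and 3. The same samples marked the extremes of sh1, with wild types 2 and 4 lowest and mutant 4 highest, and mutant 4 was also the highest sample for every transporter. The part of this component in the results was not tested. In whole apices, more cells of a type and more RNA per cell cannot be told apart.

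Mutant apices were compared with wild-type apices to ask how the loss of the TML genes, which the series title ties to vein specification, goes with the expression of genes for phloem loading and sucrose use. The sh1 transcript had higher values in all 3 mutants than in any wild type. All 4 transporters had higher values in mutants 3 and 4 than in any wild type, while mutant 2 did not share that pattern. The sus1 transcript had lower values in mutants 3 and 4 than in any wild type. Tested by edgeR's quasi-likelihood method, 0 of the 6 genes passed an adjusted p of 0.05, as did 0 of the 22772 genes tested (0.0%). At an unadjusted p under 0.05 the same test gave 1 of the 6 genes and 2784 of all genes (12.2%). DESeq2 on the same samples called 1 of the 6, which was sh1, and 658 of 24166 genes (2.72%).

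Of the transporters, SUT1 is the phloem-loading importer. Its level, in counts per 1000000 counts after TMM scaling (CPM), was 35.8, 24.3 and 35.2 in wild types 2, 3 and 4, and 22.2, 63.0 and 63.1 in mutants 2, 3 and 4. Mutants 3 and 4 lay above every wild type and mutant 2 below every wild type, so the genotypes overlapped. Mutants averaged 49.4 ± 23.6 CPM against 31.8 ± 6.45 CPM for wild types (SD, n = 3 each). The fitted log2 fold change, mutant over wild type, was 0.64 (SE 0.41), with an adjusted p of 0.51 in edgeR's test. It was 0.42 without mutant 4 and 0.99 without mutant 2.

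SWEET13a was the most abundant of the SWEET13 sucrose efflux carriers. Its level was 10.2, 5.69 and 9.54 CPM in wild types 2, 3 and 4, and 5.88, 26.0 and 44.0 CPM in mutants 2, 3 and 4. Mutant 2 was within the wild-type range, and mutants 3 and 4 lay above it. Mutants averaged 25.3 ± 19.1 CPM against 8.48 ± 2.44 CPM for wild types (SD, n = 3 each), and the log2 fold change was 1.57 (SE 0.67) with an edgeR adjusted p of 0.41. The log2 fold change of SWEET13a was 0.91 without mutant 4 and 2.04 without mutant 2.

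SWEET13b, a carrier of the same kind, had the smallest fitted difference of the transporters. It stood at 5.66, 5.62 and 6.78 CPM in wild types 2, 3 and 4, and at 3.71, 9.89 and 10.7 CPM in mutants 2, 3 and 4. Mutant 2 was again the lowest sample. The log2 fold change was 0.42 (SE 0.40), with an edgeR adjusted p of 0.64. It was 0.17 without mutant 4, 0.25 without mutant 3 and 0.77 without mutant 2.

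SWEET13c, the least abundant of the carriers, had few counts in wild-type apices and in mutant 2. The counts summed over both runs were 18, 21 and 19 in wild types 2, 3 and 4, and 3, 66 and 209 in mutants 2, 3 and 4. The 3 counts of mutant 2 carry an exact Poisson 95% interval of 0.619 to 8.77 counts, which covers counting error only. The log2 fold change was 2.22 (SE 1.16), with an edgeR adjusted p of 0.45. It was 0.89 without mutant 4 and 2.79 without mutant 2. With all 6 samples kept, it was 0.88 (SE 1.61) with limma-voom and 0.97 with limma on log2(TPM + 1) without a filter, so its size depends on the setting. The wild-type level was 0.654 ± 0.0412 CPM and the mutant level 3.07 ± 3.39 CPM (SD, n = 3 each), so the mutant mean was set largely by mutant 4 at 6.77 CPM.

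**Figure D1:**
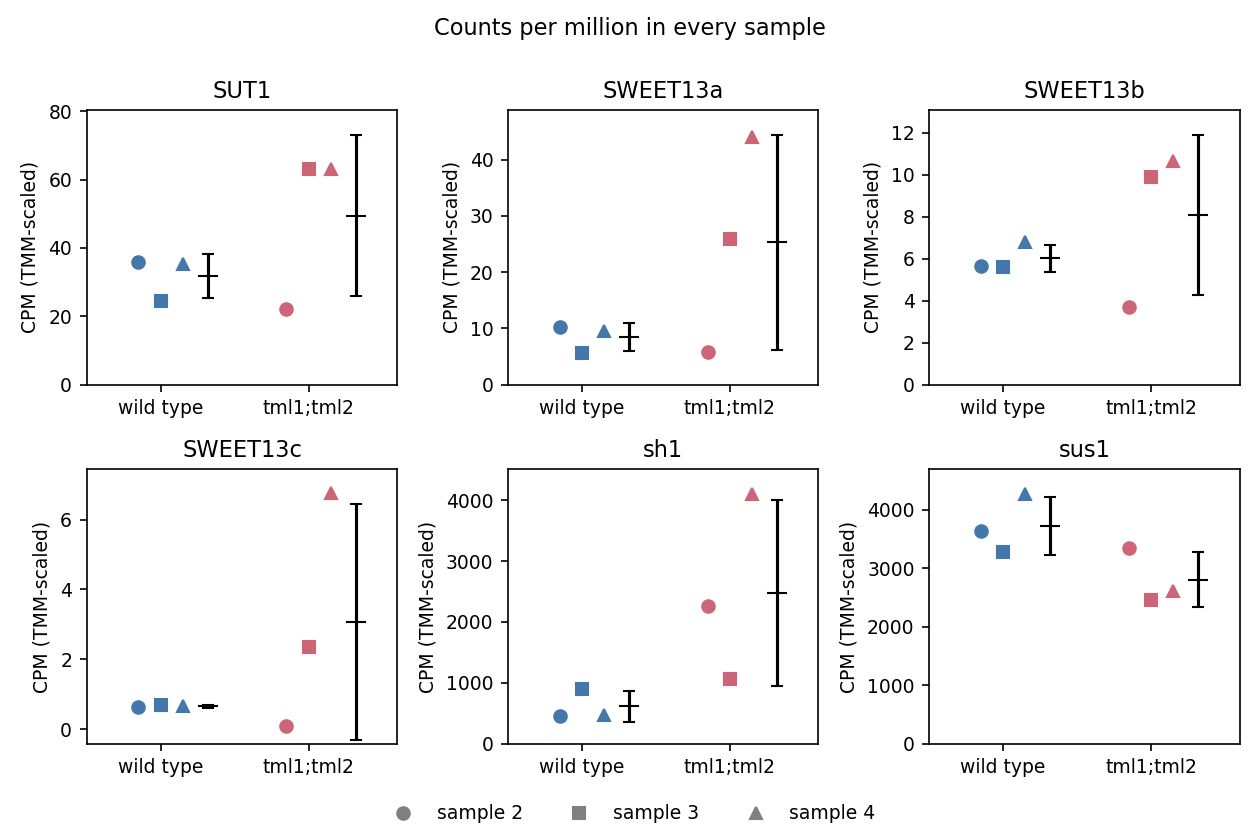
CPM (TMM-scaled, linear axes) of the 6 genes in every sample, with wild types in blue and tml1;tml2 mutants in red, the marker shape giving the sample number, and bars for the mean and SD of 3 samples. For SUT1 and the SWEET13 genes mutants 3 and 4 lie above all wild types while mutant 2 does not, whereas for sh1 all 3 mutants do.

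The 4 transporters thus ordered the mutants alike, with mutant 4 highest and mutant 3 second in 4 of 4 genes and mutant 2 lowest of all samples in 3 of 4. For SUT1 mutants 4 and 3 were nearly level, at 63.1 and 63.0 CPM. Among wild types, wild type 3 was lowest for SUT1 and SWEET13a. For SWEET13b wild types 2 and 3 were nearly level, at 5.66 and 5.62 CPM, and by TPM wild type 2 was the lower (5.56 against 5.94). SWEET13c had only 18, 21 and 19 counts in wild types 2, 3 and 4, so their order is uncertain. The pattern of mutants 3 and 4 above all wild types with mutant 2 not above them, picked out after the values were seen, was shown by 2065 of the 22772 genes tested (9.07%). The SWEET13 genes are close paralogs, and estimated counts can be shared out unequally among similar sequences, so their separate values are less certain than their sum. The summed SWEET13 level was 16.5, 12.01 and 16.96 CPM in wild types 2, 3 and 4, and 9.68, 38.2 and 61.4 CPM in mutants 2, 3 and 4. The genotypes overlapped through mutant 2. The difference of mean log2 levels was 0.92 (SE 0.81), and the exact two-sided permutation test gave p = 0.4, where 3 samples against 3 cannot go below 0.1. Without mutant 2 this difference was 1.69, and without mutant 4 it was 0.36.

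Within the SWEET13 group, SWEET13a made up 57.6%, 42.8% and 51.7% of the summed TPM in wild types 2, 3 and 4, and 55.9%, 63.9% and 67.7% in mutants 2, 3 and 4. Mutant 2 lay inside the wild-type range and mutants 3 and 4 above it. SWEET13c contributed 4.19% to 6.30% in wild types and 1.12%, 6.93% and 12.6% in mutants 2, 3 and 4. SUT1 was also set against the SWEET13 carriers together. The ratio of SUT1 to summed SWEET13 was 1.22, 1.103 and 1.15 in wild types 2, 3 and 4, and 1.29, 0.946 and 0.591 in mutants 2, 3 and 4. The wild types were close to one another and the mutants lay on both sides of them. The log2 difference, mutant minus wild type, was −0.37 (SE 0.33), with an exact two-sided permutation p of 0.4. It was −0.07 without mutant 4 and −0.63 without mutant 2.

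The sucrose synthase sh1 was the gene whose genotypes did not overlap. Besides its role in the kernel, sh1 is known as a gene induced by low oxygen in maize seedlings. It stood at 461, 903 and 470 CPM in wild types 2, 3 and 4, and at 2263, 1066 and 4098 CPM in mutants 2, 3 and 4. The lowest mutant, mutant 3, exceeded the highest wild type, wild type 3, by 1.18-fold, and mutant 4 was the highest sample by far. Mutants averaged 2476 ± 1527 CPM against 611 ± 252 CPM for wild types (SD, n = 3 each), a ratio of 4.05.

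For sh1 the log2 fold change was 2.02 (SE 0.55), with an unadjusted p of 0.0090 and an adjusted p of 0.36 in edgeR's quasi-likelihood test. It was 1.45 without mutant 4 and 2.40 without wild type 3. An absolute log2 fold change at least as large was found in 2.49% of the genes tested. It was 1 of 6 genes at an unadjusted p under 0.05, where 12.2% of all genes tested were, and 1 of 6 without overlap between genotypes, where 19.3% of all genes were, so neither count stood clearly apart from the background. DESeq2 on the same 6 samples gave sh1 an adjusted p of 0.0076 and called 1 of the 6 genes, against 2.72% of all genes. The DESeq2 call was lost without mutant 4 (adjusted p = 0.071), without wild type 2 (0.14) and without wild type 4 (0.12). edgeR's likelihood ratio test, which does not allow for uncertainty in each gene's spread, called sh1 and no other of the 6 (adjusted p = 0.026), against 1.68% of all genes.

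Calls on the other genes appeared with DESeq2 under 2 further settings. With mutant 2 left out, the sample that broke the transporter pattern, DESeq2 called SUT1, SWEET13a, SWEET13c and sh1, 4 of the 6 genes against 4.32% of all genes. edgeR's quasi-likelihood test on the same 5 samples gave the 6 genes adjusted p of 0.31 to 0.39. The DESeq2 fit without mutant 2 was added after the data were seen. Leaving out the sample that broke the pattern favours such calls, so they do not count as evidence for the pattern. With any other single sample left out, DESeq2 called 0 or 1 of the 6 genes. DESeq2 on the 12 run columns, which treats runs of a sample as samples, called SWEET13a, SWEET13c, sh1 and sus1, 4 of the 6 against 24.2% of all genes.

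The transcript sus1, the more abundant sucrose synthase and one found widely in growing tissues, varied least over the 6 samples, although SWEET13b and SWEET13c varied less among wild types alone. It stood at 3636, 3274 and 4265 CPM in wild types 2, 3 and 4, and at 3341, 2459 and 2619 CPM in mutants 2, 3 and 4. Mutants 3 and 4 were below all wild types, and mutant 2 lay just above wild type 3. Mutants averaged 2806 ± 470 CPM against 3725 ± 502 CPM for wild types (SD, n = 3 each). The log2 fold change was −0.41 (SE 0.25), with an edgeR adjusted p of 0.49. It was −0.31 without wild type 4, −0.36 without mutant 4 and −0.56 without mutant 2.

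**Figure D2:**
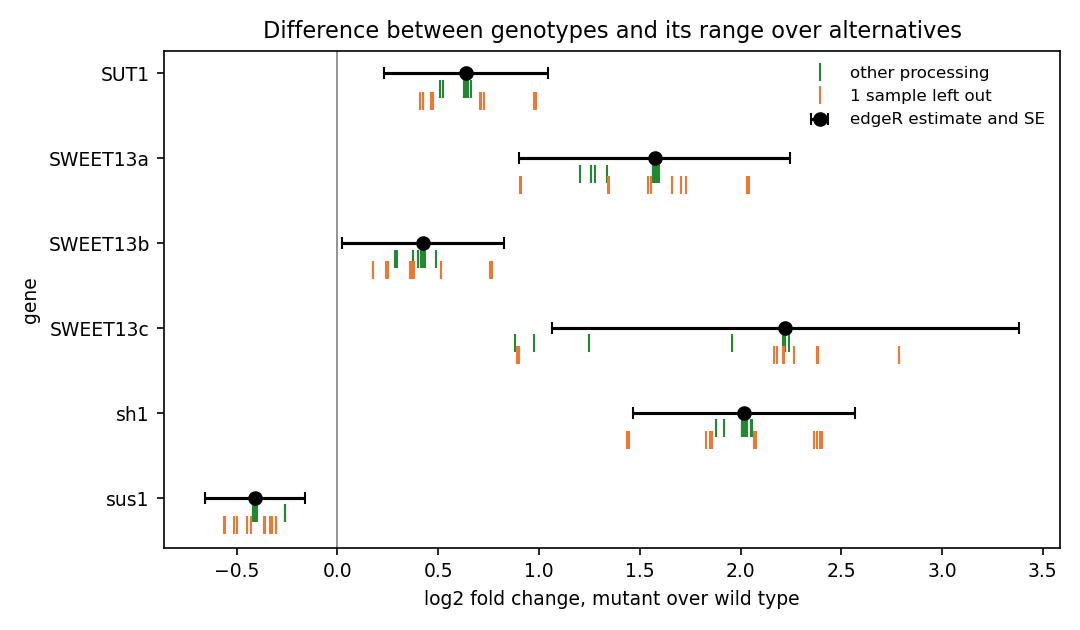
Log2 fold change, mutant over wild type, of each gene (x axis) from edgeR with its SE (black), with green ticks for other tools, units and filters and orange ticks for fits that leave out 1 sample. Every tick lies on the side of 0 of its estimate, and the ticks spread most for SWEET13c and SWEET13a.

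The balance of the sucrose synthases parted the genotypes without overlap, and their sum did not. The sh1 level alone also parted them. It ranged 8.88-fold in CPM over the samples, against 1.73-fold for sus1, so the balance largely followed sh1. The ratio of sh1 to sus1 TPM, which is free of library scaling, was 0.154, 0.338 and 0.133 in wild types 2, 3 and 4, and 0.839, 0.534 and 1.91 in mutants 2, 3 and 4. All mutants lay above all wild types. The log2 difference was 2.32 (SE 0.68), a 4.98-fold difference of geometric means, and the exact two-sided permutation test gave p = 0.1, the smallest that 3 against 3 allows. Of the 3 combined quantities tested in this way none passed 0.05, which this design cannot reach. The summed TPM of sh1 and sus1, a sum added after the values were seen, was 1450, 1624 and 1527 in wild types 2, 3 and 4, and 2291, 1414 and 3037 in mutants 2, 3 and 4. Here mutant 3 was below all wild types, so the genotypes overlapped.

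**Figure D3:**
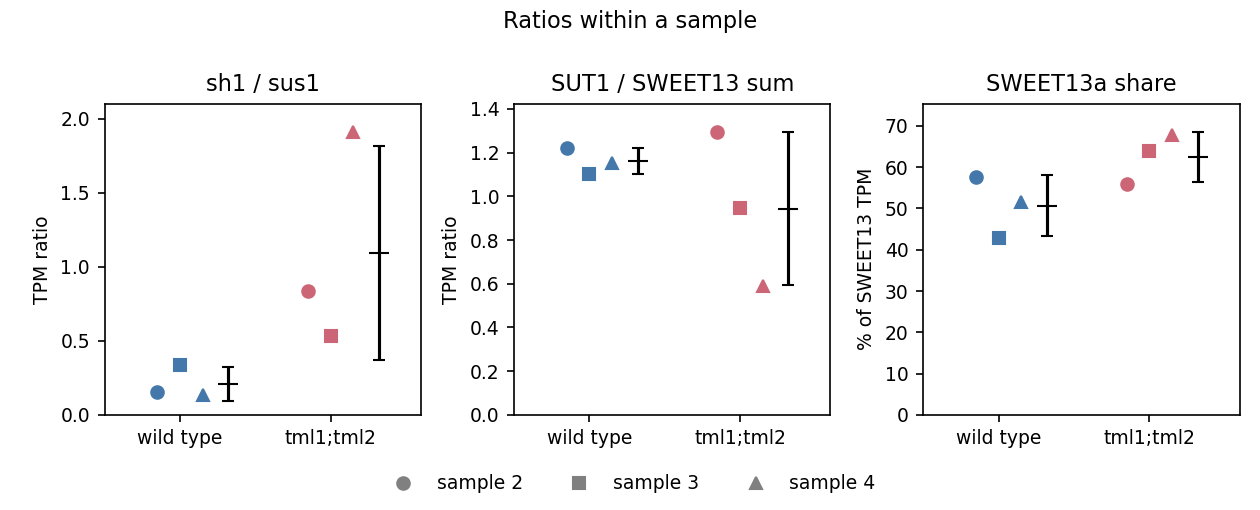
Ratios within each sample on linear axes: sh1 to sus1 TPM, SUT1 to summed SWEET13 TPM, and the share of SWEET13a in the SWEET13 TPM, with bars for the mean and SD of 3 samples and shapes for the sample number. The mutants lie above all wild types for sh1 to sus1 (0.534 to 1.91 against 0.133 to 0.338) and overlap them in the other panels.

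The spread among mutants exceeded that among wild types for 6 of 6 genes, as it did for 61.7% of all genes tested. The SD of log2 CPM among mutants was 0.87 for SUT1, 1.498 for SWEET13a, 0.84 for SWEET13b, 2.76 for SWEET13c and 0.97 for sh1, against a median of 0.33 over all genes. Among wild types the same SD was 0.31 for SUT1, 0.46 for SWEET13a, 0.15 for SWEET13b, 0.08 for SWEET13c and 0.55 for sh1, against a median of 0.26. For sus1 it was 0.23 among mutants and 0.19 among wild types. The mutants therefore differed widely among themselves in 5 of these genes, with SWEET13c at the 99.4th percentile of all genes and SWEET13a at the 95.4th. The difference in spread was not tested.

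**Figure D4:**
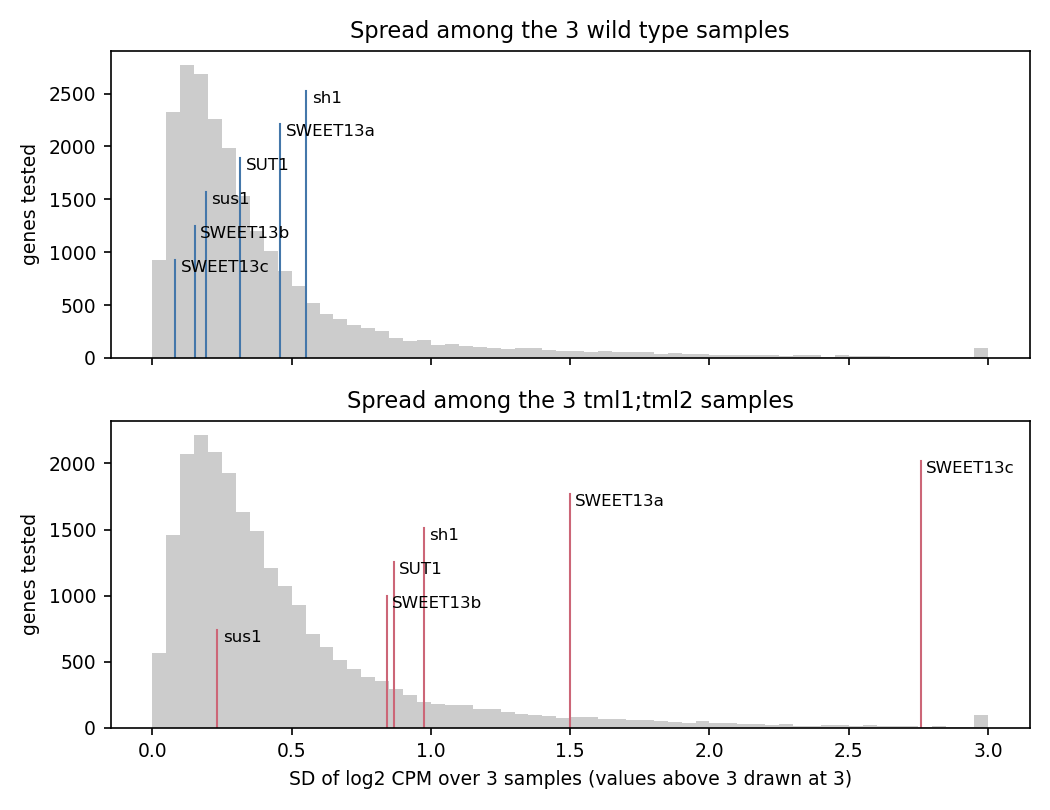
Distribution over the 22772 genes tested of the SD of log2 CPM among the 3 wild types (top) and the 3 mutants (bottom), with coloured lines for the 6 genes (their heights serve only to separate the names). Among mutants all but sus1 lie to the right of the bulk of the genes, while among wild types they are spread through it.

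For the more abundant genes the runs of 1 sample differed little. The TPM of the runs differed by at most 1.02-fold for sh1, 1.03-fold for sus1 and 1.18-fold for SUT1 in any sample. For the weaker genes the largest difference was 1.35-fold for SWEET13a and 1.57-fold for SWEET13b, and SWEET13c in mutant 2 had 3 counts in run 1 and 0 in run 2. SWEET13c in wild type 3 had 0.886 TPM in run 1 and 0.585 TPM in run 2. The SWEET13b difference was in mutant 2, with 3.09 TPM in run 1 and 4.86 TPM in run 2. Among wild types its runs differed most in wild type 4, at 6.59 and 5.71 TPM. The range across wild types, in CPM of summed runs rather than TPM of single runs, was 1.20-fold for SWEET13b and 1.13-fold for SWEET13c.

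Average transcript length changes when a gene's output moves between transcripts of different size, but it can also differ between libraries. For sh1 it was 2316 ± 18.3 bases in mutants against 2334 ± 11.99 bases in wild types (SD, n = 3 each). For sus1 it was 2852 ± 2.36 bases in mutants against 2840 ± 12.1 bases in wild types. Wild type 4 had the shortest average of all samples for every gene but sh1, at 2827 bases for sus1 and 1183 bases for SWEET13a. The sus1 difference therefore does not by itself show a move between transcripts. None of the 6 genes passed limma's test of length, with adjusted p of 0.50 to 0.86, and 1 of 21744 genes did (0.0046%). At an unadjusted p under 0.05 limma gave 0 of the 6 and 924 of all genes (4.25%).

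Single transcripts of 3 of the 6 genes stand in the authors' deposited table of DESeq2 results, which covers adjusted p of up to 0.05 and holds transcripts of 26.6% of the genes tested here. Its header does not name the numerator, and 91.9% of its fold changes for genes tested here run opposite in sign to the mutant-over-wild-type values computed here, so they are read as wild type over mutant. For sh1 the authors' deposited table lists transcript T003 at a log2 fold change of −1.84 (SE 0.394) and T002 at −1.09 (SE 0.267), both higher in the mutant on that reading. T003 had a mean normalized signal of 11036 and T002 one of 520. These were 47.5% and 2.24% of the mean count per run of sh1, and no other sh1 transcript is listed. For SWEET13a the authors' deposited table lists T001 at −1.56 (SE 0.489), also higher in the mutant. The SE of SWEET13a was 0.470 in DESeq2 on the 12 run columns here and 0.642 on the 6 samples. The listed mean of T001, 249, was near the 251 counts per run of the gene. Runs of a sample may thus have passed as samples in the authors' deposited table, which would make its SEs and adjusted p too small.

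The transcripts of sus1 went both ways. In the authors' deposited table T002, which held a mean normalized signal of 45256, had a log2 fold change of 0.45 (SE 0.113), and T016, with a mean of 1398, had 0.60 (SE 0.175), both lower in the mutant. In the authors' deposited table transcript T001, with a mean of 1102, had −0.39 (SE 0.124), higher in the mutant. These values come from the same libraries and are not independent of the gene counts. SUT1, SWEET13b and SWEET13c had no transcript among the rows of the authors' deposited table.

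The genes most like SUT1 across the 6 samples, by Pearson correlation of log2 CPM among 14112 other genes with a mean of at least 10 CPM, were Zm00001d029075 (r = 0.998) and Zm00001d005579 (r = 0.985), which carry no name in the files. SWEET13a reached r = 0.967 with SUT1 on the same measure. For sus1 they were Zm00001d002253 (r = 0.997) and Zm00001d051760 (r = 0.993). These values describe likeness over 6 samples that share libraries, with 2 of the 3 mutants apart from the rest for SUT1.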

How the data were processed

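The 6 genes, the gene lists and the tests were chosen with earlier results of these data known. The submitters' processing notes name STAR, Salmon and DESeq2, without versions; build and filters are not given in those sources. For every gene and run the authors deposited an estimated count, a TPM value and an average transcript length in bases, per the file headers. The authors' deposited transcript table gives a mean normalized signal, a log2 fold change with its SE, a Wald score and p-values. No per-sample column was left out.

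Per sample, the estimated counts of both runs were added and rounded, TPM averaged and lengths averaged with count weights. All 6 genes passed edgeR's expression filter. edgeR 4.0.16 (R 4.3.3) ran the quasi-likelihood test on 3 mutants against 3 wild types, with TMM scaling and Benjamini-Hochberg adjustment over 22772 genes. SEs are approximate. Log2 CPM used a prior count of 2. Lengths were tested with limma 3.58.1 for genes of mean TPM of at least 1. Combined quantities were tested by exact permutation in scipy 1.17.1. DESeq2 1.42.0, limma-voom, limma on log2(TPM + 1) and log2(TPM + 0.1), other scaling and filters, runs alone, a length offset, a replicate block and each sample left out were alternatives.

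Named genes were the 6 and, by rule, the 2 genes most like the most abundant transporter and synthase. Of the 39324 identifiers, 0 matched the reference gene table (assembly Zm-B73-REFERENCE-NAM-5.0), so 0 of the 5 symbol lists (sucrose pathway, shoot meristem, phloem, green leaf, root) had a measured member, and no sequence is shown. At these totals 3 counts correspond to 0.0938 to 0.110 CPM before TMM scaling, a floor that covers counting error only.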

Additional observations from a re-analysis of the deposited data

How the results depend on the processing

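The count of 0 of the 6 genes from edgeR's quasi-likelihood test became 1 (sh1) with DESeq2 on the 6 samples, 1 (sh1) with edgeR's likelihood ratio test, and 4 (SWEET13a, SWEET13c, sh1 and sus1) with DESeq2 on the 12 run columns, where runs of a sample pass as samples. Over the whole table the same settings called 658, 383 and 5993 genes, against 0. Leaving out samples, DESeq2 called 0 to 4 of the 6 genes and 185 to 1344 of all genes (of wild types 2, 3 and 4 in turn, leaving 1 out gave 185, 1344 and 309 calls, and of mutants 2, 3 and 4, 1064, 1138 and 428), and edgeR 0 to 0; the 4 came without mutant 2 (SUT1, SWEET13a, SWEET13c and sh1). Those DESeq2 fits, and the counts over all genes, were added after the data were seen. With the replicate block edgeR called 0 genes and gave sh1 a log2 fold change of 1.92 with an adjusted p of 0.63, and SWEET13c one of 1.25; same-numbered samples deviated together at r of 0.22, −0.27 and −0.18, so the numbers were not taken as pairs. Of 152 values of single genes under an alternative, 0 changed direction and 12 passed the threshold. The 3 combined quantities kept their direction in 27 of 27 values, and members with a changed length numbered 0 throughout. On log2(TPM + 1) the median of all genes was 0.13, and relative to it sus1 stood at −0.39 and sh1 at 1.92. SWEET13c gave no value with a filter of 1 CPM, filtered TPM or run 2 alone. Beyond fewer samples or genes, what causes the shifts was not tested.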
